A study of Mus musculus with 4 samples.

Results

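The genes described are 10 that set or mark the identity of brown adipocytes, the heat-producing fat cells, and they were measured by RNA-Seq before and during adipogenesis of brown preadipocytes. They comprise 6 regulators (Ebf1, Ebf2, Ebf3, Prdm16, Ppargc1a and Ppargc1b) and 4 markers of the mature cell (Cidea, Dio2, Elovl3 and Ucp1). The genes were chosen by name, and each was taken as the RefSeq transcript of its symbol with the most reads over the 4 libraries. All 10 were matched, out of 22463 gene symbols in the files. The cells were C57BL/6J brown preadipocytes from E18.5 embryos, immortalized by SV40T, which lacked MLL3 (MLL3-/-) and carried floxed MLL4 before the adenovirus was given. Ad-GFP cells (MLL3-/-, labelled WT) had received an adenovirus for GFP, and Ad-Cre cells (MLL3-/-;MLL4-/-) one for Cre, which deletes the floxed part of Mll4, and values under Ad-GFP or under Ad-Cre are those of the cells so infected. MLL3 and MLL4 are methyltransferases that place mono- and dimethylation on lysine 4 of histone H3 at enhancers. Day 0 was the confluent culture, and day 2 followed induction with a cocktail of insulin, T3, indomethacin, dexamethasone and IBMX. There was 1 library for each of the 4 conditions so that no spread between replicates and no test of the conditions could be had, and Ad-GFP cells lacked MLL3 and are no wild type for it.

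Between 17198448 and 22986362 reads were mapped per library. The level of a gene was given as its read count and as RPKM, the reads per kilobase of exon and per 1000000 mapped reads, which corrects for length and depth. The counts over all transcripts summed to 17029623 and 22099995 under Ad-GFP at day 0 and day 2, and to 19388026 and 15831915 under Ad-Cre. Mapped reads were 17198448, 22986362, 19511448 and 18031815, so that the Ad-Cre day 2 library fell furthest short. With these sums as totals, the day 2 log2 ratios of Ad-Cre to Ad-GFP became −1.53 for Prdm16 and −1.73 for Ppargc1b, against −1.66 and −1.86. A gene was called expressed above 1 RPKM under Ad-GFP at day 0 or day 2, which held for 11541 of the 22463 genes, and not detectable at 3 reads or fewer. On a transcript of 1 kb, 3 reads amount to 0.131 to 0.174 RPKM. Intervals are exact 95% intervals of the counts, Poisson for a level and binomial for a ratio. They cover counting error only and compare the libraries, not the conditions. In RNA from a whole culture, fewer cells of a type and less RNA per cell cannot be told apart.

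EBF1, EBF2 and EBF3 are early B cell factors, transcription factors that bind a shared DNA motif, and EBF2 marks committed brown preadipocytes and helps PPARγ reach brown fat genes. PRDM16 is a zinc-finger coregulator that holds precursors on the brown fat path rather than the muscle path and acts with C/EBPβ, PPARγ and the PGC-1 coactivators. PGC-1α (Ppargc1a) and PGC-1β (Ppargc1b) are coactivators that drive mitochondrial biogenesis and oxidative metabolism. The markers come late: UCP1 uncouples respiration to release heat, DIO2 makes active thyroid hormone within the cell, ELOVL3 elongates very long chain fatty acids, and CIDEA sits on lipid droplets.

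To show the regulatory DNA of the genes on which the results turn, the 250 bases upstream of the RefSeq start are printed 5′ to 3′ for Prdm16, which passed 1 RPKM in a single library, for Ucp1, the defining marker that gave at most 1 read, and for Dio2, the marker that gave reads in a single library. Positions are those of GRCm38.p6. Capitals mark motif matches, and windows without capitals held none.
Prdm16 (chr4:154636874-154637123, minus strand): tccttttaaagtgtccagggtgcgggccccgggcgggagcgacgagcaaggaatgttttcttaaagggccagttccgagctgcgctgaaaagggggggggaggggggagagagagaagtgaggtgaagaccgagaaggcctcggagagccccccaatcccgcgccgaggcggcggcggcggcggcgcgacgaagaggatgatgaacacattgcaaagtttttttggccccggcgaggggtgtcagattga
Ucp1 (chr8:83290098-83290347, plus strand): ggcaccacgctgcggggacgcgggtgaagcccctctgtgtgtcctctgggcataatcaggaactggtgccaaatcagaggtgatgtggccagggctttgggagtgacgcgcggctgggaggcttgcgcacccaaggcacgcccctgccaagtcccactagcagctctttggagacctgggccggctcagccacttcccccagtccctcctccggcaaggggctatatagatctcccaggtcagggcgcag
Dio2 (chr12:90739039-90739288, minus strand): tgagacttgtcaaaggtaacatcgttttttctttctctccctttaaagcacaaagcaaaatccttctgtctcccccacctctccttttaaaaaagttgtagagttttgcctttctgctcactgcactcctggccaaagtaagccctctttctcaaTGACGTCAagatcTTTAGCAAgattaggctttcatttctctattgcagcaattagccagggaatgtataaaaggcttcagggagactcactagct
The motifs searched on both strands were that of EBF factors (TCCCNNGGGA, in 0.779% of 32851 mouse promoter windows of this length), a C/EBP motif (TTGCNNAA, 9.56%), a PPAR response element (AGGTCANAGGTCA, 0.0335%) and the cyclic AMP response element (TGACGTCA, 1.55%). The Dio2 window held a cyclic AMP response element starting 95 bases and a C/EBP motif starting 82 bases before the transcript start, in its capitals. No letters of these motifs were found in the windows of Ebf1, Ebf3, Prdm16, Ppargc1a and Ucp1. A match is a description of letters and not a measured binding site.

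The study also designed primers for an enhancer upstream of Prdm16. Their product lies at chr4:154037660-154037733 of NCBI37/mm9, 26.7 kb upstream of the annotated Prdm16 start, and is shown on the minus strand, the strand of the gene, with the primer sites in capitals.
Prdm16 upstream enhancer: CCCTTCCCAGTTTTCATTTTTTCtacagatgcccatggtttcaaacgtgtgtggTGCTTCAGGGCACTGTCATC
None of the 4 motifs was found in the 300 bases around it. The paper lists an enhancer at the Prdm16 locus among those bound by MLL4, and reports ChIP-qPCR, an assay of DNA bound by a protein, as a check.

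Of the 10 genes, 3 were above 1 RPKM under Ad-GFP at day 0 and 5 at day 2, against 3 and 4 under Ad-Cre. At day 0 these were the EBF factors, which Ppargc1b and, under Ad-GFP alone, Prdm16 joined at day 2. No marker passed 1 RPKM in any library. At 3 reads or fewer were 4 genes under Ad-GFP and 5 under Ad-Cre at day 0, and 2 and 4 at day 2. The share of all genes above 1 RPKM lay between 48.0% and 49.3% in the 4 libraries, and the share at 3 reads or fewer between 40.3% and 40.8%.

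**Figure D1:**
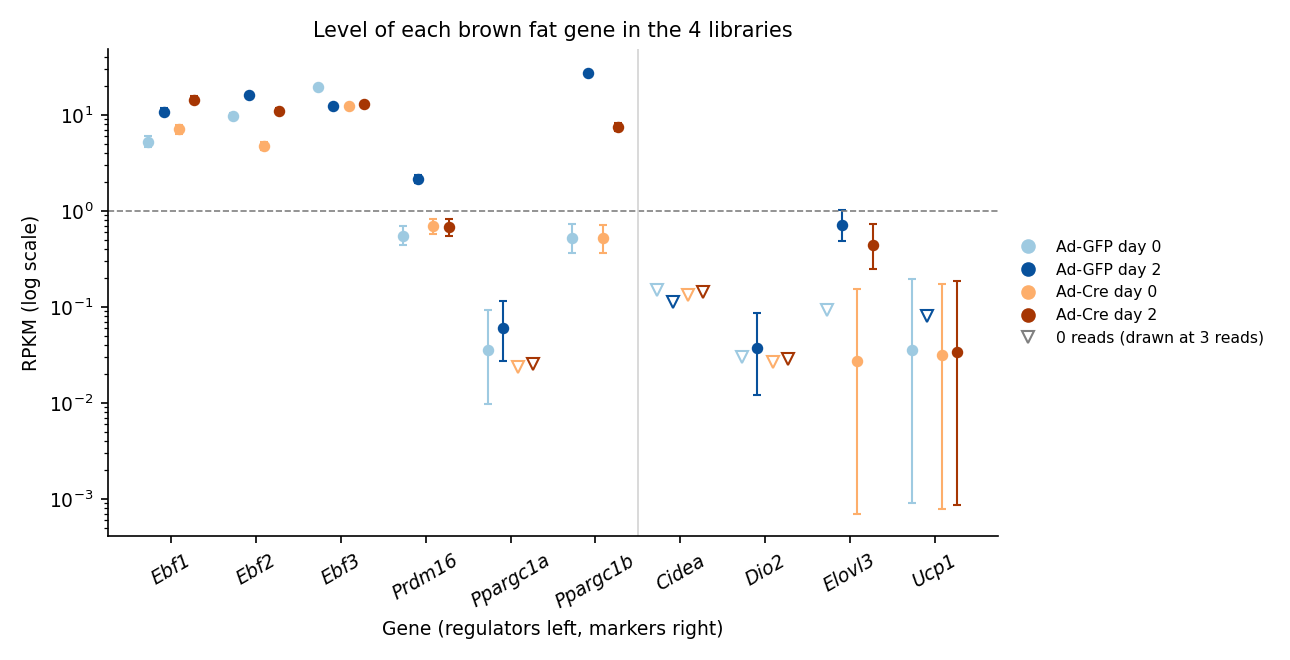
RPKM on a log axis of each of the 10 genes in the 4 libraries, 1 library per condition, with exact Poisson 95% intervals, which cover counting error only. Open triangles are genes with 0 reads, drawn at the RPKM that 3 reads would give, and the dashed line is 1 RPKM. The 3 EBF factors lie above the line in all libraries, Prdm16 in Ad-GFP day 2 alone and Ppargc1b on day 2, and the 4 markers lie below it everywhere.

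The EBF factors were the regulators above 1 RPKM before induction. Ebf1 (NM_007897, plus strand, chr11:44430819-44821593 of NCBI37/mm9, the build of all gene positions that follow) gave 204 reads under Ad-GFP at day 0 and 556 at day 2, and 309 and 583 under Ad-Cre, or 5.28, 10.8, 7.05 and 14.4 RPKM. The level was higher at day 2 than at day 0 under both adenoviruses, and higher with Ad-Cre than with Ad-GFP on both days. Day 2 exceeded day 0 by a log2 ratio of 1.03 under Ad-GFP (interval 0.79 to 1.27) and by 1.03 under Ad-Cre (0.83 to 1.23), and the difference between these log2 ratios was 0.00 (−0.31 to 0.31). Ad-Cre exceeded Ad-GFP by 0.42 at day 0 (0.16 to 0.68) and by 0.42 at day 2 (0.25 to 0.59). After division of the ratios by their trend over transcript length and GC content, the day 2 value became 0.81. The log2 ratios between the days then became 0.67 under Ad-GFP and 1.05 under Ad-Cre, so that their equality depends on this step. No ratio of Ebf1 reached 2.5-fold.

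Ebf2 (NM_010095, plus strand, chr14:67852129-68048604) gave 724 and 1610 reads under Ad-GFP at day 0 and day 2, and 404 and 866 under Ad-Cre, or 9.70, 16.1, 4.77 and 11.1 RPKM. It was highest under Ad-GFP at day 2 and lowest under Ad-Cre at day 0, where it was 2.03-fold lower than under Ad-GFP (log2 ratio −1.02, −1.20 to −0.85). Of all expressed genes, 5.79% had a lower ratio at day 0. Between the days its log2 ratio was 0.73 under Ad-GFP (0.61 to 0.86) and 1.21 under Ad-Cre (1.04 to 1.39), a difference of 0.48 (0.26 to 0.70). At day 2 the Ad-Cre to Ad-GFP log2 ratio was −0.54 (−0.67 to −0.42). It became 0.10 after division of the ratios by their trend over transcript length and GC content, so that the direction at day 2 depends on this step, whereas the day 0 value became −0.98.

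Ebf3 (NM_001113415, minus strand, chr7:144385356-144506128) gave 1667 and 1425 reads under Ad-GFP and 1213 and 1164 under Ad-Cre, or 19.3, 12.3, 12.4 and 12.9 RPKM. One library stood above the other 3, that of Ad-GFP cells at day 0. The Ad-GFP day 2 to day 0 log2 ratio was −0.64 (−0.75 to −0.54) and the day 0 Ad-Cre to Ad-GFP log2 ratio also −0.64 (−0.75 to −0.53), and these ratios share the Ad-GFP day 0 library. The other ratios were 0.05 between the days under Ad-Cre (−0.06 to 0.17) and 0.06 between the adenoviruses at day 2 (−0.05 to 0.17). These 2 values became 0.50 and 0.68 after the division by length and GC trend.

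Summed over the 3 genes, the EBF level was 34.3 and 39.2 RPKM under Ad-GFP and 24.2 and 38.3 RPKM under Ad-Cre. The sums at day 2 were near each other and differed in make-up. Ebf3 accounted for 56.3% of the sum under Ad-GFP at day 0 and 31.4% at day 2, and for 51.1% and 33.5% under Ad-Cre. Ebf2 was the largest part under Ad-GFP at day 2 (41.1%), and Ebf1 under Ad-Cre at day 2 (37.6%). In the latter library the intervals of Ebf1 (13.3 to 15.6 RPKM) and Ebf3 (12.1 to 13.6 RPKM) overlapped. The shares also depend on the transcript lengths used, and that of Ebf1 was 2245 exon bases against an annotated length of 5981. Ebf4, the remaining family member, stayed between 10 and 28 reads and below 1 RPKM.

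**Figure D2:**
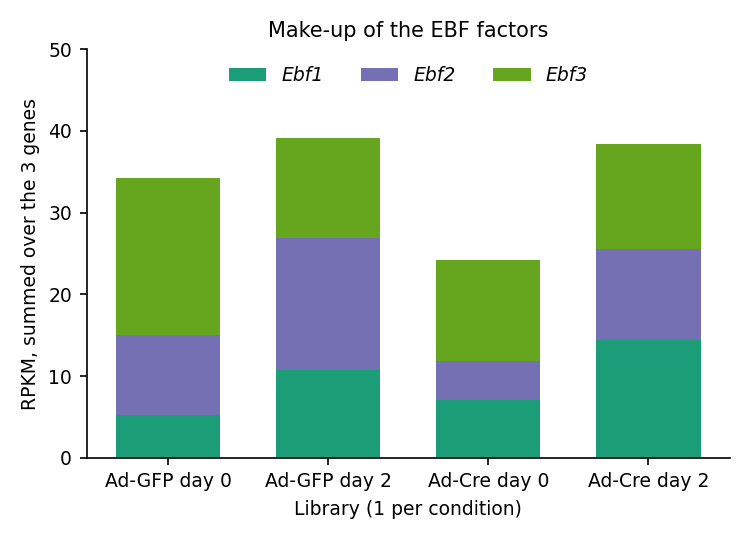
RPKM of Ebf1, Ebf2 and Ebf3, stacked from 0, in each of the 4 libraries (1 per condition, so no error between replicates can be drawn). Ebf3 is the largest part at day 0 under both adenoviruses, and at day 2 Ebf2 is the largest part in Ad-GFP and Ebf1 in Ad-Cre. The ranks depend on the transcript lengths used, and the intervals of Ebf1 and Ebf3 overlap in the Ad-Cre day 2 library.

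Prdm16 (NM_027504, minus strand, chr4:153690234-154010982) was low at day 0 and rose under Ad-GFP alone. It gave 82 reads under Ad-GFP at day 0 and 424 at day 2, and 116 and 105 under Ad-Cre, or 0.554, 2.14, 0.691 and 0.677 RPKM. The Ad-GFP day 2 library was the high one, and the intervals of the other 3 levels overlapped. Day 2 was 3.87-fold above day 0 under Ad-GFP (log2 ratio 1.95, 1.61 to 2.31), and 96.3% of expressed genes had a lower ratio. In Ad-Cre cells the log2 ratio was −0.03 (−0.42 to 0.36), and the Ad-Cre value less the Ad-GFP value was −1.98 (−2.52 to −1.45). Ad-Cre cells were 3.17-fold below Ad-GFP cells at day 2 (log2 ratio −1.66, −1.99 to −1.35), and at day 0 the log2 ratio was 0.32 (−0.10 to 0.74). The day 2 value became −1.47 with TMM factors, which scale libraries by the middle of their genes, and −1.13 after the division by length and GC trend, which is short of 2.5-fold. Its paralog Mecom, which encodes the related factor EVI1, went from 3.14 to 1.97 RPKM under Ad-GFP and from 4.61 to 2.59 RPKM under Ad-Cre.

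Ppargc1b (NM_133249, minus strand, chr18:61457790-61560085) had the largest induction of the 5 expressed genes under both adenoviruses. Its reads numbered 33 under Ad-GFP at day 0 and 2287 at day 2, and 37 and 494 under Ad-Cre, or 0.525, 27.2, 0.519 and 7.49 RPKM. The day 0 libraries did not differ beyond counting error, both day 2 libraries were far above them, and the Ad-GFP one was the higher. The induction was 51.9-fold under Ad-GFP (log2 ratio 5.70, 5.20 to 6.24) and 14.4-fold under Ad-Cre (3.85, 3.37 to 4.38), a difference of −1.84 (−2.58 to −1.11). At day 2 the level under Ad-Cre was 3.63-fold lower (log2 ratio −1.86, −2.00 to −1.72), and at day 0 the log2 ratio was −0.02 (−0.73 to 0.71). Of all expressed genes, 3.71% had a lower ratio at day 2.

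Ppargc1a (NR_027710, minus strand, chr5:51845488-51958964), the cold-induced coactivator, gave 4 and 9 reads under Ad-GFP and 0 and 0 under Ad-Cre, that is at most 0.0603 RPKM. The reads came from Ad-GFP cells alone. The upper 95% limit of the Ad-Cre to Ad-GFP log2 ratio was 0.42 at day 0, which includes no difference, and −0.63 at day 2. Its other listed transcript, NM_008904, gave 3, 9, 0 and 0 reads. At day 2 under Ad-GFP, the PGC-1β transcript was thus at 27.2 RPKM and the PGC-1α transcript at 0.0603 RPKM. The third family member, Pprc1 (PRC), lay between 20.3 and 40.6 RPKM in the 4 libraries.

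**Figure D3:**
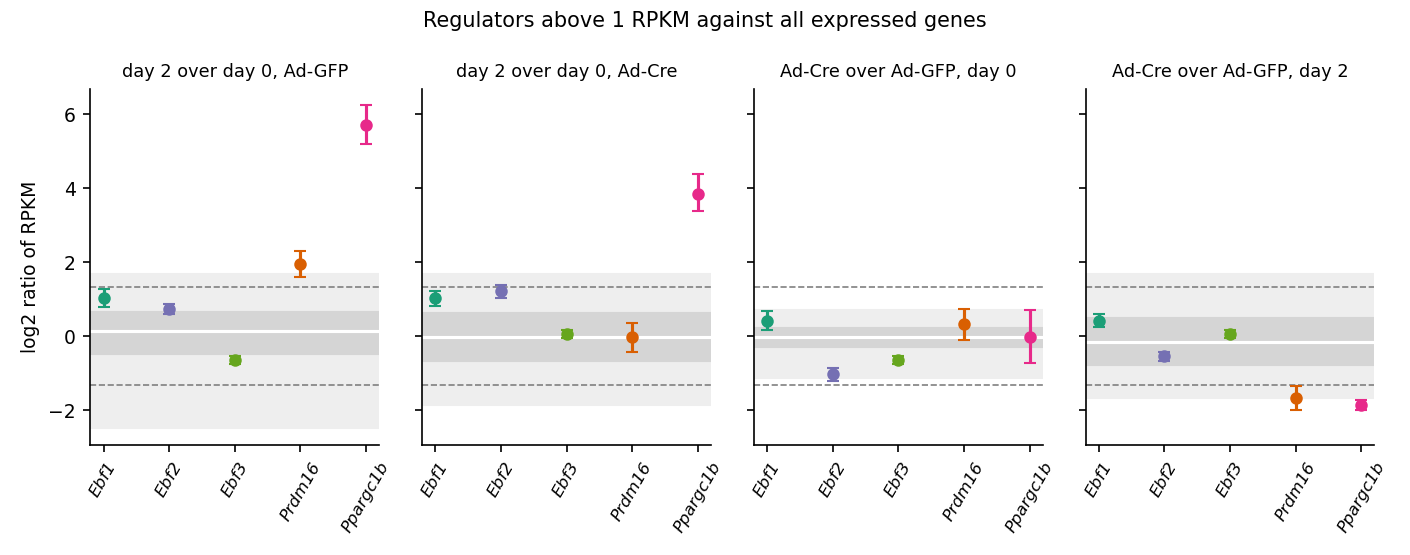
Log2 ratio of RPKM of the 5 regulators above 1 RPKM in the 4 comparisons, with exact binomial 95% intervals of the read ratio (counting error only). White lines are the median of all expressed genes, dark and light grey bands their middle 50% and 90%, and dashed lines 2.5-fold. Ppargc1b is past the upper line in both inductions and Prdm16 in Ad-GFP alone, and both lie past the lower line between Ad-Cre and Ad-GFP at day 2.

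Read against all 11541 expressed genes, 2 of the 10 genes (Prdm16 and Ppargc1b) rose over 2.5-fold under Ad-GFP, where 8.38% of expressed genes rose, and 0 fell, where 12.7% fell. In Ad-Cre cells 1 gene (Ppargc1b) rose, against 8.66% of expressed genes, and 0 fell, against 10.0%. Between Ad-Cre and Ad-GFP cells, 0 genes were over 2.5-fold higher and 0 lower at day 0, where 1.27% of expressed genes were higher and 4.12% lower. At day 2, 2 genes (Prdm16 and Ppargc1b) were lower in Ad-Cre, against 10.1% of expressed genes, and 0 were higher, against 8.14%. With 5 expressed genes, nothing particular to the group is read from these counts. The median log2 ratio of the 5 expressed regulators was 1.03 under Ad-GFP and 1.03 under Ad-Cre between the days, and −0.02 at day 0 and −0.54 at day 2 between the adenoviruses, beside 0.15, −0.01, −0.02 and −0.16 over all expressed genes. The rise under Ad-GFP and the day 2 difference share the Ad-GFP day 2 library, so that they are not separate evidence.

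The markers were at or near the limit of detection. Cidea (NM_007702, plus strand, chr18:67503218-67527448) gave 0 reads in all 4 libraries, where a level of 1 RPKM would give 26.8 reads in the Ad-GFP day 2 library and 21.0 in the Ad-Cre one, and the upper 95% limits were 0.138 to 0.184 RPKM. Ucp1 (NM_009463, plus strand, chr8:85814247-85822355) gave 1 and 0 reads under Ad-GFP at day 0 and day 2 and 1 and 1 under Ad-Cre, where 1 RPKM would give 28.3 to 37.8 reads, with upper limits of 0.0976 to 0.197 RPKM. Neither gene was thus detectable at this depth on day 2.

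Dio2 (NM_010050, minus strand, chr12:91962994-91976878) gave 5 reads under Ad-GFP at day 2 (0.0374 RPKM, upper limit 0.0873) and 0 in the other 3 libraries. The lower 95% limit of its day 2 to day 0 log2 ratio under Ad-GFP was −0.54, and the upper limit of its Ad-Cre to Ad-GFP log2 ratio at day 2 was 0.48, so that neither difference was detectable at this depth. Elovl3 (NM_007703, plus strand, chr19:46206387-46210184) was the marker with most reads, 0 and 31 under Ad-GFP and 1 and 15 under Ad-Cre, or 0, 0.718, 0.0273 and 0.443 RPKM. It was detectable at day 2 under both adenoviruses and at day 0 under neither. Under Ad-GFP the lower 95% limit of the log2 ratio of day 2 over day 0 was 2.57, and under Ad-Cre 15 reads stood against 1 (log2 ratio 4.02, 1.32 to 9.42). At day 2 the Ad-Cre to Ad-GFP log2 ratio was −0.70 with an interval of −1.69 to 0.24, so that no difference was detectable at this depth. The upper limit of Elovl3 under Ad-GFP at day 2 was 1.02 RPKM, the one marker interval that reached 1 RPKM.

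To set these low counts beside genes that such cells should lack, the 1103 olfactory receptor genes of the files were counted. Between 94.9% (Ad-Cre day 2) and 98.5% (Ad-Cre day 0) of them had no read. At most 4 in a library had more than 3 reads, and the highest count in a library was 3 to 8 reads. The 31 and 15 reads of Elovl3 at day 2 were above this range and the single reads of Ucp1 within it. The 5 reads of Dio2 and the 9 of Ppargc1a under Ad-GFP at day 2 stood beside a highest olfactory receptor count of 8 in that library.

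Paralogs of the markers showed which family members the cells did express. Of 15 paralogs of the 10 genes, 10 were expressed, 2 rose over 2.5-fold under Ad-GFP and 1 fell, where 8.38% and 12.7% of expressed genes did. Cidec, the lipid droplet protein related to CIDEA, rose from 0.649 to 105 RPKM under Ad-GFP and from 0.843 to 23.4 under Ad-Cre. Dio3, the enzyme that inactivates thyroid hormone, gave 29 and 142 reads under Ad-GFP and 5 and 18 under Ad-Cre, whereas Dio1 gave none. Dio3 was thus over 2.5-fold lower under Ad-Cre on both days (log2 ratio −2.72, −4.44 to −1.33, at day 0 and −2.63, −3.43 to −1.92, at day 2). Ucp2 lay between 32.6 and 52.0 RPKM and Ucp3 gave no read. Elovl6, an elongase of shorter fatty acids, fell from 28.2 to 4.78 RPKM under Ad-GFP and was over 2.5-fold higher under Ad-Cre at day 2 (17.0 RPKM, log2 ratio 1.83, 1.70 to 1.96). Elovl4 was also higher under Ad-Cre at day 2 (2.74 against 0.926 RPKM).

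Other genes of the brown fat programme went in several directions. Beside the counts of this and the next lists, 8.38% of all expressed genes rose under Ad-GFP and 12.7% fell. Under Ad-Cre 8.66% rose and 10.0% fell, and 10.1% were lower and 8.14% higher in Ad-Cre at day 2. Of 24 further regulators, 19 were expressed, and under Ad-GFP 7 rose over 2.5-fold and 1 (Zic1, a brown fat lineage factor) fell, while under Ad-Cre 5 rose and 0 fell. At day 2, 5 were lower under Ad-Cre (Pparg, Cebpa, Zfp516, Nrip1 and Rb1) and 2 higher (Plac8 and Nr4a1), with a median log2 ratio of −0.15 beside −0.16 over all expressed genes. Pparg, the master regulator of fat cells, gave 3.29 and 38.5 RPKM under Ad-GFP and 0.994 and 7.53 under Ad-Cre, and was the one regulator of the list over 2.5-fold lower already at day 0. Nrip1 (RIP140), a corepressor that restrains brown fat genes, gave 4.08 and 26.6 RPKM under Ad-GFP and 4.33 and 4.57 under Ad-Cre. Rb1, the retinoblastoma protein, which also restrains them, gave 1.47 and 6.01 RPKM against 2.75 and 1.52. Both rose over 2.5-fold under Ad-GFP and not under Ad-Cre, where the log2 ratio between the days was 0.08 for Nrip1 (−0.13 to 0.29) and −0.85 for Rb1 (−1.17 to −0.54). Plac8, needed for Cebpb expression in brown fat, went the other way, from 3.46 to 28.4 RPKM under Ad-Cre, with 4.51 and 3.06 under Ad-GFP.

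Of 26 further brown fat genes, 15 were expressed, 7 rose and 0 fell over 2.5-fold under Ad-GFP, and under Ad-Cre 3 rose (Adrb3, Pdk4 and Plin5) and 1 fell. Adrb3 and Plin5 stayed below 1 RPKM under Ad-Cre (0.238 and 0.668 at day 2). The interval of the Adrb3 log2 ratio there (−0.02 to 3.79) included no change. At day 2, 6 genes of the list were lower in Ad-Cre (Acot2, Adrb3, Mtus1, Pdk4, Fgf21 and Nrg4) and 0 higher. The median log2 ratio was −1.12, beside −0.16 over all expressed genes. Adrb3, the adrenergic receptor of fat cells, gave 3 and 108 reads under Ad-GFP and 4 and 12 under Ad-Cre. Pdk4, a kinase that shuts off glucose oxidation, was lower under Ad-Cre on both days, at 9.38 and 23.7 RPKM under Ad-GFP against 2.18 and 6.65. Mtus1 gave 1.35 and 3.59 RPKM against 1.17 and 0.847, and Acot2, a mitochondrial thioesterase, 4.79 and 9.92 against 3.96 and 2.37. Of the list, 5 genes (Cox8b, Slc27a2, Otop1, Bmp8b and Mpzl2) gave at most 3 reads in every library, whereas Plin5, a lipid droplet protein, gave 2 and 71 reads under Ad-GFP and 1 and 24 under Ad-Cre.

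Of 18 partners and targets of the PGC-1 coactivators, 15 were expressed, 3 rose over 2.5-fold under Ad-GFP (Esrra, Tfb1m and Idh3a), 0 did under Ad-Cre, and 0 fell under either adenovirus. At day 2, 2 were lower under Ad-Cre (Tfb2m and Idh3a) and 0 higher, where 10.1% of all expressed genes were lower and 8.14% higher. The median log2 ratio was −0.56, beside −0.16 over all expressed genes. Idh3a, a subunit of a citric acid cycle enzyme, went from 16.7 to 163 RPKM under Ad-GFP and from 19.5 to 39.0 under Ad-Cre. Tfb1m and Tfb2m, mitochondrial transcription factors, gave 6.20 and 2.79 RPKM at day 2 under Ad-GFP against 2.79 and 1.02. Sirt1, the deacetylase of PGC-1α, gave 8.15 against 3.52 RPKM.

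Set beside these, 13 of 14 general adipocyte genes were expressed, all 13 rose over 2.5-fold under both adenoviruses, and all 13 were lower under Ad-Cre at day 2. Their median log2 ratio between the days was 6.28 under Ad-GFP and 3.85 under Ad-Cre. Adipoq (adiponectin), for instance, gave 0.142 and 27.5 RPKM under Ad-GFP against 0.291 and 5.67. Acsl1, Lpl and Slc2a4 gave 354, 326 and 23.5 RPKM under Ad-GFP at day 2 against 57.8, 68.3 and 4.85. Genes of lipid uptake and storage were thus already induced at a time when none of the 4 brown fat markers was above 1 RPKM.

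Of 17 white and beige fat genes, 10 were expressed, 2 rose and 3 fell over 2.5-fold under Ad-GFP, and 2 rose and 1 fell under Ad-Cre. At day 2, 2 were higher under Ad-Cre (Hoxc9 and Shox2, homeobox factors) and 4 lower (Retn, Agt, Psat1 and Inhbb). Hoxc9 and Shox2 fell under Ad-GFP, from 8.76 to 2.78 and from 18.7 to 3.69 RPKM, and were at 8.74 and 11.6 and at 36.0 and 34.9 under Ad-Cre. Agt, which encodes angiotensinogen, rose from 1.07 to 199.6 RPKM under Ad-GFP and from 1.48 to 22.2 under Ad-Cre. Psat1, an enzyme of serine synthesis, gave 241 RPKM under Ad-GFP at day 2 against 62.3.

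**Figure D4:**
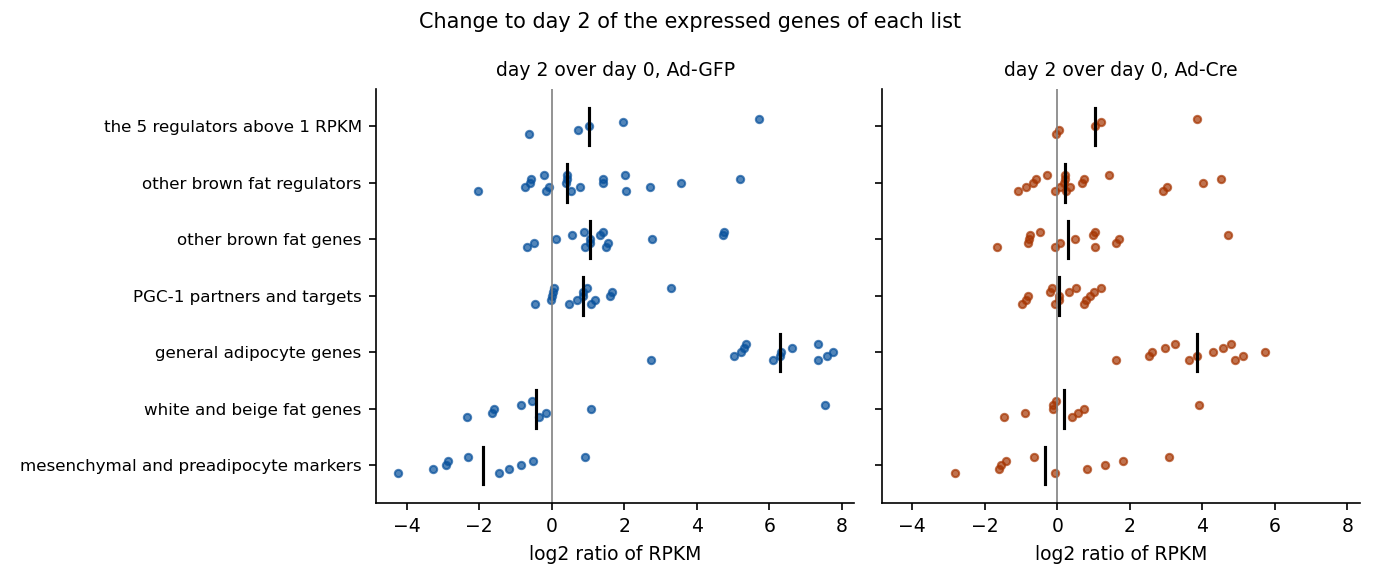
Log2 ratio of RPKM at day 2 to day 0 for the expressed genes of each list, in Ad-GFP (left) and Ad-Cre (right). Points are genes, placed apart vertically for sight only, and black bars are medians; Retn, with 0 reads at day 0, is counted above the others and not drawn, and Fgf21, at 1 read on both days, is left out of the Ad-Cre panel. The medians are 1.03 for the 5 regulators in both panels, and 6.28 and 3.85 for general adipocyte genes.

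The label of the cells was checked against markers. Of 10 mesenchymal and preadipocyte markers all 10 were expressed. Their summed levels were 3277 and 642 RPKM under Ad-GFP and 2926 and 1110.1 under Ad-Cre. Col1a1 was the highest under Ad-GFP at day 0 (1246 RPKM), fell to 65.8 there, and went from 1009.6 to 142 under Ad-Cre. Vim was the highest in the other libraries, at 225 RPKM under Ad-GFP at day 2 and at 1181 and 446 under Ad-Cre. Day 0 already set the libraries apart, with 5 markers over 2.5-fold lower under Ad-Cre (Pdgfra, Dlk1, Ly6a, Cd34 and Zfp423). Dlk1, which holds back adipogenesis, gave 141 RPKM under Ad-GFP at day 0 against 10.1, and Zfp423, a preadipocyte factor that can bind EBF proteins, 2.91 against 0.689. Ly6a gave 141 reads against 4. Their part in the lower Ebf2 level of the same library was not tested. Of 8 muscle markers only Acta1 was above 1 RPKM under Ad-GFP, at 18.4 and 0.364 RPKM under Ad-GFP and 48.5 and 3.41 under Ad-Cre, while Myog, Pax7 and Myh3 gave no read and Myf5 and Myod1 at most 1. Des, which encodes the muscle filament protein desmin, gave 19 and 5 reads under Ad-GFP and 0 and 49 under Ad-Cre, and reached 1.26 RPKM in the Ad-Cre day 2 library, with an Ad-Cre to Ad-GFP log2 ratio at day 2 of 3.64 (2.32 to 5.33). Its part in the low Prdm16 level of that library was not tested. Summed over the muscle markers, the level was 18.9 and 0.520 RPKM under Ad-GFP and 48.5 and 4.74 under Ad-Cre. Of 5 macrophage markers matched, Ptprc and Adgre1 gave no read and Cd14 at most 2.53 RPKM, and the 5 endothelial and 4 epithelial markers stayed below 1 RPKM. Under Ad-GFP 6 of the 10 mesenchymal markers fell over 2.5-fold to day 2 and 0 rose. Under Ad-Cre, where 7 were above 1 RPKM at day 0, 4 fell and 2 rose. The 2 were Ly6a (4 to 13 reads) and Cd34 (18 to 141 reads). The summed mesenchymal level was thus lower at day 2 under both adenoviruses, beside induced general adipocyte genes, and single markers went either way. The mature brown markers Cidea and Ucp1 were not detectable on either day. Reads on the whole transcript of the targeted Mll4 (Kmt2d) numbered 6304 and 8530 under Ad-GFP and 6316 and 5595 under Ad-Cre, and cannot show the loss of the floxed exons. The paper checked the deletion otherwise, with a browser view of RNA-Seq at the targeted exons and qRT-PCR of Mll4. It also reports, by immunoprecipitation, that the MLL4 complex was disrupted. Kmt2c (Mll3) still gave 451 to 1224 reads. The paper describes its Mll3 knockout as a gene trap inserted within the gene, and reads on the whole transcript cannot show the loss of MLL3 protein.

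Among 11629 genes with at least 100 reads over the libraries, the closest courses to each regulator were sought by the distance between log2(RPKM + 0.1) values, centred per gene, over the 4 libraries. Prdm16 lay closest to Erlin1 (distance 0.04), Crat (0.11) and Acp6 (0.14). Erlin1, a membrane protein of the endoplasmic reticulum, gave 6.38, 22.2, 7.92 and 7.47 RPKM, and Crat, carnitine acetyltransferase, 14.2, 47.7, 17.8 and 18.2 RPKM in the order used above. Ppargc1b lay closest to Hif3a (0.14), Cd36 (0.31), a fatty acid transporter, and Aldh1a7 (0.34). At day 0 these neighbours gave 5, 2 and 1 reads under Ad-GFP and 8, 4 and 1 under Ad-Cre. Their levels there were below the 0.1 RPKM added, so that this addition shaped their distances. Ebf1 lay closest to Ankrd9 (0.07), Thop1 (0.11) and Alkbh4 (0.12), Ebf2 to Tsku (0.12), Ndufa4 (0.14) and Kiz (0.14), and Ebf3 to Fnbp1 (0.05), Ccdc157 (0.07) and Rara (0.07). With 4 points each, such closeness is a description alone.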

How the data were processed

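RNA-Seq was analysed from 4 libraries, day 0 and day 2 of each adenovirus, assigned from the sample labels. The authors aligned 50-base reads to NCBI37/mm9 and counted those falling on RefSeq exons. Per transcript, the authors deposited whole-number read counts without normalization, and RPKM, the count over exon length and mapped reads. The submitters' processing notes name bedtools 2.16 and SICER 1.1. How reads with several matches were treated is not given in the sources used here. The mapped reads behind the RPKM were recovered from count and RPKM.

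Symbols came from a RefSeq table (GRCm38.p6, names only), coordinates from GENCODE vM1 on NCBI37/mm9, and promoter windows from RefSeq (GRCm38.p6). Windows were taken for 6 of the 10 genes. Ppargc1b and Cidea, on chromosome 18, were left out of this step, and no window was found for Ebf2 and Elovl3. Calls followed the study's rules, above 1 RPKM and past 2.5-fold, on 1 transcript per symbol. With 1 library per condition no test was possible. Exact intervals were computed with scipy 1.17.1, numpy 2.4.6 and pandas 2.3.3 in Python 3.11.15, figures with matplotlib 3.10.9, and TMM factors from the counts with R 4.3.3 and edgeR 4.0.16. The genes and lists were chosen with earlier results of these data known. Values are given for all 10 genes, and from each list for up to 4 genes with the largest day 2 ratio of Ad-Cre to Ad-GFP among those with at least 100 reads. Other names were chosen after their values were seen. For each comparison, 12 alternative settings were planned, and the division by length and GC trend (20 bins, 5 rounds, GC known for 85.1% of expressed genes) was added after seeing the data. The scripts were tested on simulated data.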

Additional observations from a re-analysis of the deposited data

Results flagged for a closer look

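For 2 of the regulators day 2 differed from day 0 under Ad-GFP and not beyond counting error under Ad-Cre. The difference between the adenoviruses was not tested, since each condition has 1 library. For Ebf3 day 2 stood to day 0 at a log2 ratio of −0.64 under Ad-GFP and 0.05 under Ad-Cre, a difference of 0.70 (interval 0.54 to 0.86, counting error only). For Prdm16 it was 1.95 under Ad-GFP and −0.03 under Ad-Cre, a difference of −1.98 (−2.52 to −1.45). The Ad-Cre values of both lie within counting error of no change, and that of Prdm16 became 0.03 with TMM factors and 0.57 after the division by length and GC trend, so that its direction depends on the scaling.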

How the results depend on the processing

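Of 104 alternative counts of genes past the fold cutoff, 93 were within 1.5 times the reported count. Several reported counts were 0, where few settings could give another count, and 3 against 2 falls within this rule. The genes rising under Ad-GFP became 1 instead of 2 with 1 RPKM added to both sides or a 4-fold cutoff. They became 3 with a threshold of 0.5 RPKM or of 20 reads (Elovl3 added), or with a 2-fold cutoff (Ebf1 added). Those rising under Ad-Cre became 2 instead of 1 with totals taken as the sum of counts, with a threshold of 0.5 RPKM or after the division by length and GC trend, and 3 with a 2-fold cutoff. At day 0, 1 gene instead of 0 was higher in Ad-Cre at a threshold of 0.5 RPKM (Elovl3, with 1 read against 0), and 1 instead of 0 lower with a 2-fold cutoff (Ebf2). At day 2, the genes lower in Ad-Cre became 1 instead of 2 with 1 RPKM added or after the division by trend (Ppargc1b), and 0 with a 4-fold cutoff. At a threshold of 0.5 RPKM, 5 instead of 3 genes were above it in each of the day 0 libraries. With the limit at 10 reads, 4 instead of 2 genes were not detectable under Ad-GFP at day 2, and with the limit at 0 reads, 3 instead of 5 under Ad-Cre at day 0. Of 140 alternative log2 ratios of single genes, 117 stayed within their interval and 0 of the called ones reversed. No paired analysis was possible because each condition has 1 library. The cause of these shifts was not tested. Depth limits the markers and Ppargc1a.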
